A study of Mus musculus with 6 samples.

Results

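The core of the PI3K, AKT and mTOR pathway was read here from 8 genes: *Pik3ca*, *Pik3r1*, *Akt1*, *Akt2*, *Mtor*, *Rptor*, *Tsc1* and *Tsc2*. They were chosen by symbol, and all 8 were found among the 14548 genes of the FPKM files. RNA was sequenced from C2C12, a myoblast line of the mouse whose cells can fuse into muscle fibres in culture. There were 3 libraries of WT cells and 3 of MSTN-KO cells, in which exon 3 of the myostatin gene had been targeted with CRISPR-Cas9. No treatment or time course was given for either group. The MSTN-KO cells were 1 edited line (C11), so line and genotype cannot be told apart, and C11 also appears as the strain label of the WT libraries. The labels do not say whether replicates were separate cultures, so the p-values measure the spread between these libraries, which may be technical. *Mstn* RNA lay between 0 and 0.0586 FPKM in all 6 libraries and could not check the labels.

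PI3K is a lipid kinase built from a catalytic and a regulatory subunit, and growth factor receptors call it to the membrane. The lipid it makes recruits the kinase AKT, which relieves the brake that the TSC1 and TSC2 proteins place on mTOR complex 1. Bound to its scaffold Raptor, mTOR then drives protein synthesis, and in muscle this route is known for its part in fibre growth. Most of its control is exerted on proteins, by phosphorylation and by location, which RNA levels do not show.

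No change in RNA level between MSTN-KO and WT was called for any of the 8 genes. At a limma Benjamini-Hochberg adjusted p under 0.05 over the 10837 genes tested, 0 of the 8 were called higher and 0 lower, whereas 8.78% of all tested genes were called higher and 8.96% lower, 17.7% in all. At an unadjusted p under 0.05 the count was also 0 of 8, against 3531 of the 10837 genes tested. The DEG rule of the study takes a log2 fold change beyond 1 in either direction at an unadjusted p under 0.05. Its thresholds, applied to the limma fit, called 0 of 8, against 3.51% of all tested genes. The study itself used the tool iDEP and reported more genes in each direction. In every one of the 8 genes the 3 MSTN-KO libraries overlapped the 3 WT libraries. Over all tested genes the MSTN-KO libraries lay wholly above WT in 19.3% and wholly below in 18.1%. The 8 log2 fold changes of FPKM + 1 ran from -0.18 to 0.25, with 4 above 0 and 4 below, and their median was 0.03 beside -0.00078 over all tested genes.

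The FPKM values, which are fragments scaled to the exon length of a gene and to the depth of its library, summed to between 723705 and 764524 in WT and between 856314 and 999579 in MSTN-KO. The smallest steps of genes with 1 annotated transcript put the depth roughly at 15600000 to 19200000 fragments a library. This was a median of values inside a set range, which held 36.1% to 51.6% of the genes used. The mode of such values without a range, added after the data had been seen, gave 15800000 to 20400000 fragments. At the first of these depths the 8 genes drew between 356 and 10352 fragments in a library, so counting alone gave an error of about 5.30% of a value at most. Myotube markers, such as *Myog* and *Mylpf*, summed to between 193 and 710 FPKM in WT and between 28.4 and 48.4 FPKM in MSTN-KO, and all 6 of the tested ones were lower in MSTN-KO. Markers of the myogenic line summed to 1024 to 1361 FPKM in WT and 565 to 692 FPKM in MSTN-KO, with 3 of 4 lower. Fibroblast markers summed to 10.4 to 16.1 and 10.9 to 18.7 FPKM with 1 of 2 tested genes lower, immune markers to 1.19 to 1.56 and 0.818 to 2.45 FPKM with 0 of 1, and all 4 endothelial markers found (*Pecam1*, *Cdh5*, *Kdr* and *Tek*) stayed under 0.1 FPKM in every library. The part of these markers in the results on pathway genes was not tested, and in bulk RNA fewer cells of a type and less RNA per cell cannot be told apart.

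*Akt1* and *Akt2* encode kinases that share most of their sequence, so the letters of both are shown to see how far short reads could tell them apart. In the GENCODE M21 transcripts of GRCm38, *Akt1* lies on the minus strand of chromosome 12 (chr12:112653821-112674884) and *Akt2* on the plus strand of chromosome 7 (chr7:27591552-27640826). The longest identical run of their coding sequences was 32 bases long. It is given in capitals with 15 bases on either side, read 5′ to 3′ along the coding strand, from exon 11 of the coding transcript used for *Akt1* (chr12:112656816-112656877) and exon 11 of that used for *Akt2* (chr7:27636378-27636439).
Akt1: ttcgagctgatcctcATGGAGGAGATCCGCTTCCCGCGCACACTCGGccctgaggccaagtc
Akt2: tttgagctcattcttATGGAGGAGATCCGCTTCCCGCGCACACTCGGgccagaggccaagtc
Of the 4182 different 50-base windows in *Akt1* transcripts, 0 occurred letter for letter in another gene. Near matches and other read lengths were not counted, so such windows do not show how the reads themselves were assigned. In *Akt2*, 717 of 7350 windows (9.76%) occurred in the pseudogene *Akt2-ps*, for which no value was analysed here, so the level of *Akt2* is the less certain of the pair. Among the other 6 genes this share ran from 0% in *Mtor* and *Tsc1* to 1.72% in *Tsc2*.

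The catalytic subunit of PI3K was represented by *Pik3ca*, which encodes p110 alpha (chr3:32397671-32468486, plus strand). Its FPKM was 5.79, 5.67 and 5.68 in WT replicates 1, 2 and 3 and 5.98, 6.15 and 3.21 in MSTN-KO replicates 1, 2 and 3. MSTN-KO replicates 1 and 2 lay above all WT libraries and MSTN-KO replicate 3 below all of them. The means were 5.71 ± 0.0669 (SD, n = 3) in WT and 5.12 ± 1.65 (SD, n = 3) in MSTN-KO. The log2 fold change was -0.17 with a standard error of 0.20 (limma adjusted p = 0.572), and its 95% interval of -0.60 to 0.25 covered folds from 0.661 to 1.19.

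*Pik3r1* encodes the regulatory subunit p85 alpha and its shorter forms (chr13:101680563-101768217, minus strand). Its FPKM was 3.74, 4.29 and 4.67 in WT and 4.11, 3.95 and 2.90 in MSTN-KO. The lowest value was again that of MSTN-KO replicate 3, and the other 2 MSTN-KO libraries lay inside the WT range. The log2 fold change was -0.18, with a standard error of 0.16 and a 95% interval of -0.53 to 0.18 (limma adjusted p = 0.483). The median over the 410 tested genes of chromosome 13 was -0.34 on the log2 scale, lower than the value of *Pik3r1* itself, and the part of this shift in its value was not tested.

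**Figure D1:**
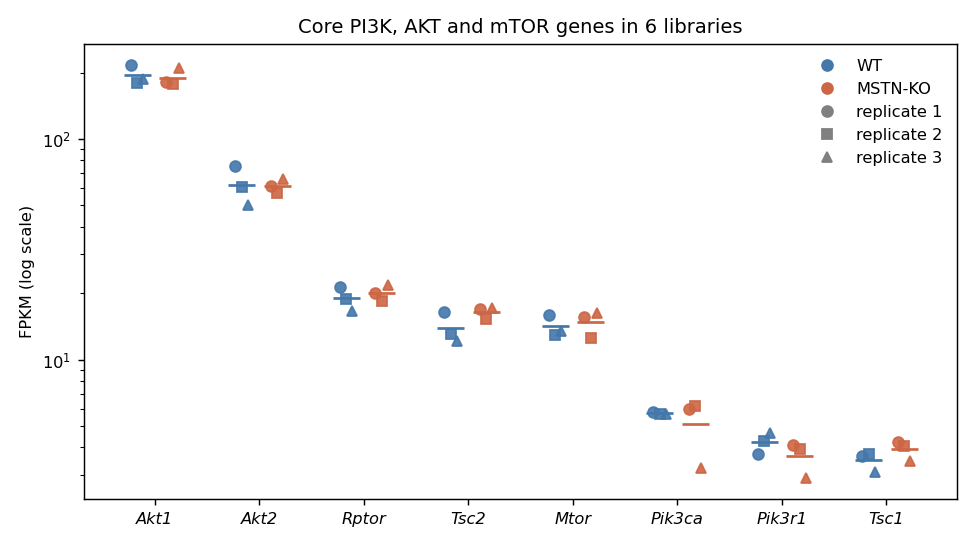
FPKM of the 8 genes on a log axis, 1 point per library, with WT in blue, MSTN-KO in orange, marker shape for the replicate number and a bar at each group's mean (n = 3). The groups overlap in every gene, *Pik3ca* is tight in WT (5.67 to 5.79 FPKM), and MSTN-KO replicate 3 stands low in *Pik3ca* and *Pik3r1*.

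*Akt1*, the AKT gene tied most closely to growth, had the highest FPKM of the 8. It stood at 217, 179.8 and 186 FPKM in WT and at 182, 177 and 211 FPKM in MSTN-KO. Each group had 1 high library, WT replicate 1 and MSTN-KO replicate 3, and the other 4 lay close together. The means were 194 ± 20.04 FPKM (SD, n = 3) in WT and 189.9 ± 18.3 FPKM (SD, n = 3) in MSTN-KO. The log2 fold change was -0.03 with a standard error of 0.13 and a 95% interval of -0.31 to 0.25 (limma adjusted p = 0.882).

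*Akt2*, the AKT gene best known for the response to insulin, was at 75.3, 60.4 and 50.2 FPKM in WT replicates 1 to 3. In MSTN-KO it was at 61.1, 56.8 and 65.5 FPKM. The WT libraries spanned the whole MSTN-KO range, with replicate 1 above it and replicate 3 below it. The log2 fold change was -0.0029 with a standard error of 0.15, and its 95% interval of -0.33 to 0.32 (limma adjusted p = 0.991) covered folds from 0.798 to 1.25.

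*Mtor* encodes the kinase that both mTOR complexes share (chr4:148448611-148557683, plus strand). Its FPKM was 16.0, 12.98 and 13.5 in WT and 15.6, 12.5 and 16.3 in MSTN-KO. The highest and the lowest value were both in MSTN-KO. The log2 fold change was 0.06 with a standard error of 0.15 and a 95% interval of -0.26 to 0.38 (limma adjusted p = 0.807).

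*Rptor* encodes Raptor, the scaffold that brings substrates to mTOR complex 1 (chr11:119602905-119899576, plus strand). It was at 21.3, 18.9 and 16.6 FPKM in WT and at 20.1, 18.4 and 21.7 FPKM in MSTN-KO. MSTN-KO replicate 3 was only slightly above the highest WT library, and the other MSTN-KO libraries lay inside the WT range. The log2 fold change was 0.08 with a standard error of 0.14 and a 95% interval of -0.22 to 0.38 (limma adjusted p = 0.719).

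The inhibitory pair came last. *Tsc1* encodes hamartin, which stabilises its partner (chr2:28641228-28691167, plus strand), and was at 3.66, 3.75 and 3.09 FPKM in WT and at 4.24, 4.07 and 3.46 FPKM in MSTN-KO. MSTN-KO replicates 1 and 2 lay above WT, and replicate 3 fell inside the WT range. Its log2 fold change was 0.13 with a standard error of 0.15 and a 95% interval of -0.20 to 0.46 (limma adjusted p = 0.592).

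*Tsc2* encodes tuberin, the subunit that switches off the small GTPase Rheb (chr17:24595816-24632630, minus strand), and was at 16.4, 12.99 and 12.1 FPKM in WT and at 16.9, 15.3 and 17.2 FPKM in MSTN-KO. MSTN-KO replicate 2 lay below WT replicate 1, and all other MSTN-KO values lay above all WT values. The means were 13.8 ± 2.29 FPKM (SD, n = 3) in WT and 16.5 ± 0.995 FPKM (SD, n = 3) in MSTN-KO. This was the largest of the 8 differences, with a log2 fold change of 0.25, a standard error of 0.15 and a 95% interval of -0.07 to 0.56 (limma adjusted p = 0.259), which covered folds from 0.954 to 1.47.

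The intervals set what these libraries could show. Among the genes tested, the largest unadjusted p that was called was 0.00886, so a call needed a log2 fold change of 0.40 in *Akt1*, the most precise of the 8, and of 0.60 in *Pik3ca*, the least precise. The other 6 genes needed between 0.43 and 0.50. These are the sizes that an estimate had to reach, so a true change of that size would often have fallen short of a call. The lack of a call does not show that the levels were equal.

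**Figure D2:**
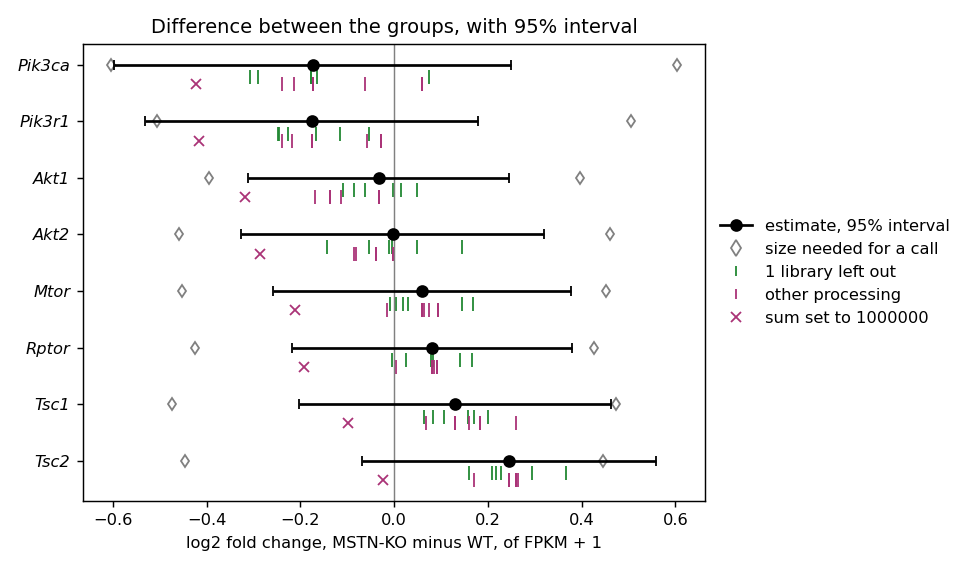
Log2 fold change of FPKM + 1, MSTN-KO minus WT, for each gene with its 95% interval (black), the size needed for a call (grey diamonds), the values with 1 library left out (green ticks) and under other processing (purple ticks), with scaling to a sum of 1000000 marked by a cross. Every interval spans 0, and no estimate reaches the diamonds.

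Calls among the 8 genes were made under 1 of 16 alternative fits. Scaling each library to a sum of 1000000 lowered the median of all tested genes by 0.256 and turned *Akt1* to a call lower in MSTN-KO (log2 fold change -0.32, limma adjusted p = 0.0317). Relative to the median of all genes under that scaling, which was -0.257, the difference of *Akt1* was -0.06. The same scaling put *Mtor*, *Rptor*, *Tsc1* and *Tsc2* below 0, none of them called.

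Levels per length fell into a steep order. *Akt1* (mean of 192 FPKM over the 6 libraries) came before *Akt2* (61.5), *Rptor* (19.5), *Tsc2* (15.2), *Mtor* (14.5), *Pik3ca* (5.41), *Pik3r1* (3.94) and *Tsc1* (3.71). *Akt1* was 2.89 to 3.71 times *Akt2* in a library, and *Akt2* was 3.02 to 3.53 times *Rptor*. *Rptor* exceeded *Tsc2* in 6 of 6 libraries, though the lowest *Rptor* value (16.6 FPKM) was under the highest *Tsc2* value (17.2 FPKM). *Tsc2* and *Mtor* did not differ beyond their spread, with *Tsc2* above in 5 of 6 libraries. *Pik3ca* exceeded *Pik3r1* in 6 of 6 libraries. *Pik3r1* stood above *Tsc1* in 3 of 3 WT libraries, at 1.02 to 1.51 times its level, and below it in 3 of 3 MSTN-KO libraries, at 0.837 to 0.97 times. This exchange between the last 2 genes was noticed after the values had been seen, was not tested and rests on differences that were not called in either gene.

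In some libraries the deviations over all genes correlated with transcript composition, and its part in the values of the core genes was not tested. MSTN-KO replicate 3 differed from the mean of the other 2 MSTN-KO libraries by -0.75 in *Pik3ca*, -0.37 in *Pik3r1* and -0.21 in *Tsc1* on the log2 scale, and by 0.09 to 0.23 in the other 5 genes. The 3 genes that stood low have the lowest GC content of the 8 in their longest transcripts, at 41.2%, 44.9% and 51.7%, against 54.2% to 59.7% in the others. Over 10784 genes the deviation of this library had a Spearman rho of 0.506 with GC content and -0.490 with transcript length, across genes, which are not independent replicates. In WT replicate 1 the rho was 0.457 with GC content and 0.172 with length. The 3 deviations of a gene within a group sum to 0, so the other libraries of the group tend to the opposite sign and add no separate evidence. In WT replicate 1 the deviations were 0.44 for *Akt2*, 0.37 for *Tsc2*, 0.26 for *Rptor* and 0.25 for *Mtor* and *Akt1*. *Tsc1* was at 0.08, *Pik3ca* at 0.02 and *Pik3r1* at -0.21 in that library.

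**Figure D3:**
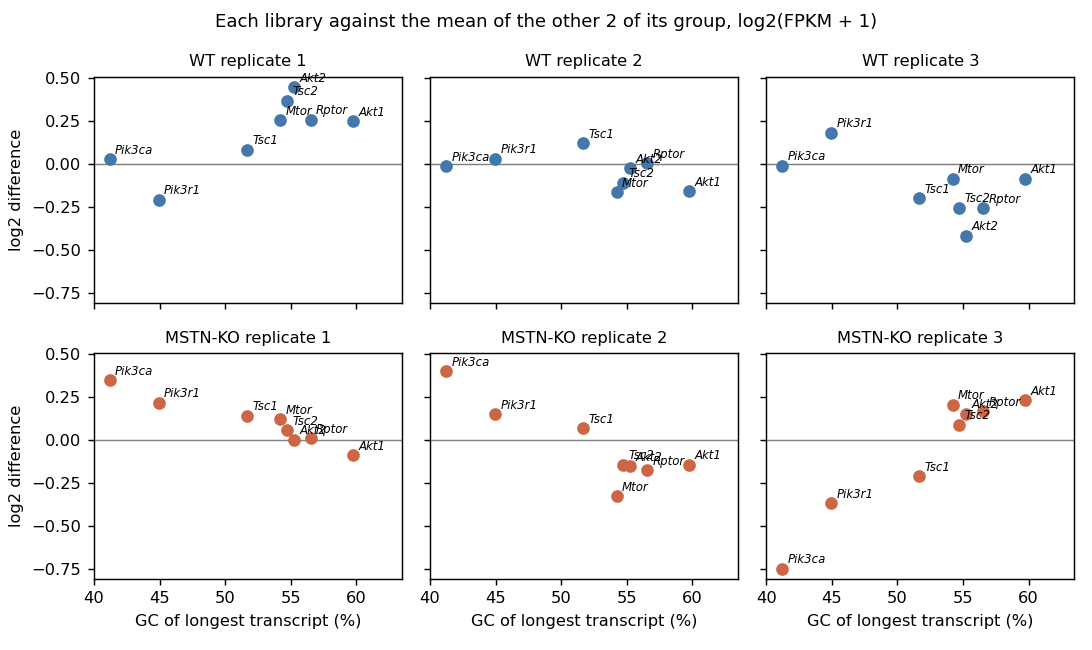
Deviation of each library from the mean of the other 2 of its group, on the log2(FPKM + 1) scale, against the GC content of each gene's longest transcript, for the 8 genes in WT (blue) and MSTN-KO (orange). In MSTN-KO replicate 3 *Pik3ca* lies at -0.75 and *Akt1* at 0.23, and in MSTN-KO replicate 2 they lie at 0.40 and -0.14, where the 3 deviations of a gene in a group sum to 0.

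With each library corrected for length and GC content by a smooth curve, MSTN-KO replicate 3 deviated by -0.26 in *Pik3ca*, -0.06 in *Pik3r1*, -0.13 in *Tsc1*, 0.05 in *Akt1* and 0.08 in *Akt2*, all closer to 0 than before. Its deviation grew from 0.21 to 0.28 in *Mtor*, from 0.17 to 0.19 in *Rptor* and from 0.09 to 0.10 in *Tsc2*, and that of *Mtor* in MSTN-KO replicate 2 went from -0.33 to -0.36. The curve was fitted to each library's deviation from the mean of all libraries, so some shrinkage along GC content and length is built in. A difference between the groups that follows GC content or length would be removed with it. Corrected *Pik3ca* levels were 5.28, 5.35 and 4.97 FPKM in WT and 6.17, 5.54 and 4.73 FPKM in MSTN-KO, and the log2 fold change became 0.06 (limma adjusted p = 0.758). The direction of *Pik3ca* thus turned with this correction, and it also turned when MSTN-KO replicate 3 was left out (0.07). Corrected *Tsc2* was at 14.3, 13.2 and 13.5 FPKM in WT and at 16.8, 15.5 and 17.4 FPKM in MSTN-KO without overlap, and the log2 difference was 0.26 (limma adjusted p = 0.0751). This was the lowest adjusted p that *Tsc2* reached in any of the 16 alternatives, and it was not a call.

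Shares and ratios within a library do not depend on how libraries were scaled, so 5 of them were compared by two-sided exact permutation tests, which cannot give less than 0.1 for 3 libraries against 3. Among the 3 class IA catalytic genes tested here, *Pik3ca* held 61.0%, 61.0% and 61.7% of the FPKM in WT and 63.7%, 72.3% and 53.3% in MSTN-KO. The 3 WT shares were nearly identical, and the MSTN-KO shares lay on both sides of them (difference of 1.89 percentage points, exact p = 0.7). After the length and GC correction this difference was 5.01 percentage points (exact p = 0.3). *Pik3cb* held 20.5% to 32.3% over the 6 libraries. *Pik3cd*, which encodes p110 delta, held 16.8%, 13.9% and 12.1% in WT and 8.01%, 7.17% and 14.4% in MSTN-KO. Its own FPKM was 1.59, 1.29 and 1.11 in WT and 0.753, 0.610 and 0.868 in MSTN-KO, where every library lay below WT. *Pik3cd* had a log2 fold change of -0.42 with a standard error of 0.17, and it was not called (limma adjusted p = 0.107, and 0.0273 to 0.336 over the 16 alternatives, 3 of which called it).

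*Pik3r1* was a minor part of the regulatory transcripts. Its share of the FPKM of *Pik3r1*, *Pik3r2* and *Pik3r3* was 6.66%, 8.72% and 10.7% in WT and 6.58%, 6.84% and 4.77% in MSTN-KO. The means were 8.69% ± 2.02 and 6.06% ± 1.13 (SD, n = 3 each), and the shares overlapped (exact p = 0.2). After the length and GC correction the difference went from -2.63 to -1.39 percentage points. *Pik3r2*, which encodes p85 beta, held 81.4% to 92.9%. Its own FPKM was 47.6, 41.8 and 35.5 in WT and 55.0, 51.1 and 56.4 in MSTN-KO, without overlap, and the log2 fold change was 0.38 with a standard error of 0.13 (limma adjusted p = 0.0682). The 16 alternatives gave *Pik3r2* adjusted p from 0.0315 to 0.561 by limma, and 2 of them called it. *Pik3r3* gave -0.47 (adjusted p = 0.155 by limma).

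**Figure D4:**
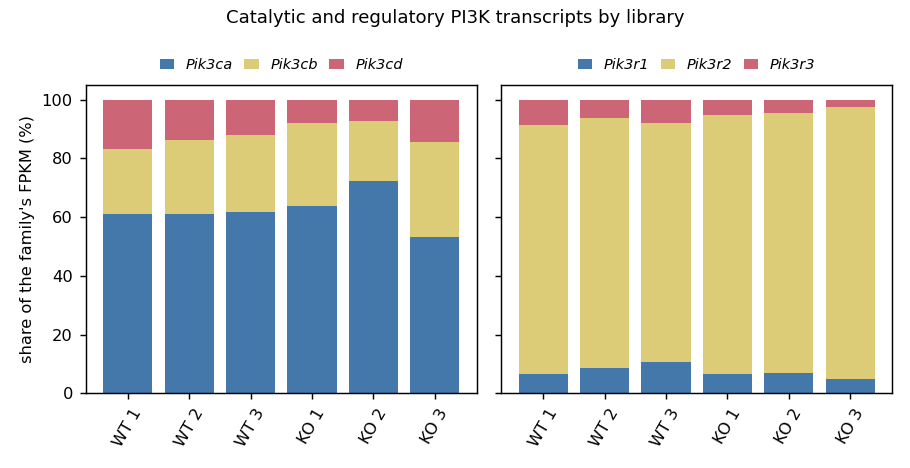
Share of the summed FPKM, in percent, held by each catalytic and each regulatory PI3K gene in every library, as stacked bars from 0 to 100. *Pik3ca* and *Pik3r2* hold the largest share of the 3 genes plotted with them in 6 of 6 libraries.

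The ratio of *Tsc1* to *Tsc2* was 0.223, 0.288 and 0.256 in WT and 0.251, 0.265 and 0.201 in MSTN-KO (difference of -0.10 on the log2 scale, exact p = 0.6). *Rptor* stood at 8.31 to 10.6 times *Rictor*, the matching subunit of mTOR complex 2, in 5 libraries and at 23.5 times in MSTN-KO replicate 3 (difference of 0.37 on the log2 scale, exact p = 0.8). *Rictor* was at 0.924 FPKM in that library and between 1.78 and 2.20 FPKM in the others, and its transcript has a GC content of 42.5%. After the length and GC correction the difference was 0.023 on the log2 scale (exact p = 0.9). The ratio of *Pik3r1* to *Pik3ca* was 0.646, 0.756 and 0.823 in WT and 0.686, 0.642 and 0.902 in MSTN-KO (exact p = 0.9). Over the 5 measures each adjusted p of the exact tests was 0.9. Since these tests cannot give less than 0.1, none could have passed 0.05, whatever the values.

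The wider pathway was read from a list of 106 other genes, 102 of them in the files and 95 tested. Of these, 9 were called higher in MSTN-KO (9.47%, beside 8.78% of all tested genes) and 1 lower (1.05%, beside 8.96%), and 85 were not called. With every library scaled to 1000000, the setting that shifted all genes down, 2 were called higher and 11 lower. Of the 11073 genes tested under that scaling, 360 were called higher and 2425 lower. The median log2 fold change was 0.07, beside -0.00078 over all tested genes. MSTN-KO lay wholly above WT in 26 of 95 (27.4%, beside 19.3%) and wholly below in 9 (9.47%, beside 18.1%). With the thresholds of the study's DEG rule on the limma fit, 0 of 95 were called (beside 3.51% of all tested genes). The study, with its own calls and the pathways of the KEGG database, reported the PI3K-Akt pathway as enriched among genes lower in MSTN-KO. Its gene list and its calls differ from those used here, so these counts do not bear on that result. Other PI3K subunits (8 tested), phosphatases such as *Inppl1* (5), the AKT-activating kinase *Pdpk1* (1), other mTOR complex subunits (10) and *Rheb*, *Rhebl1* and *Tbc1d7* (3) gave no call in either direction with the main settings, and the alternatives that called *Pik3cd* and *Pik3r2* are given above.

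Upstream of PI3K, *Irs2* was the 1 gene called of 7 tested receptors and adaptors. That is 14.3% called higher, beside 8.78% of all tested genes, and 0 lower, beside 8.96%. *Irs2* encodes an adaptor that links insulin and IGF receptors to PI3K, and it stood at 1.96, 1.51 and 1.76 FPKM in WT and at 3.94, 3.04 and 3.02 FPKM in MSTN-KO. All MSTN-KO libraries lay above WT (log2 fold change 0.66, standard error 0.16, limma adjusted p = 0.0154). *Irs1*, its relative, was named after its values had been seen: it was at 7.09, 4.95 and 5.37 FPKM in WT and at 3.35, 4.88 and 2.67 FPKM in MSTN-KO, and its log2 fold change of -0.57 was not called (limma adjusted p = 0.0602). *Irs1* lies on chromosome 1, where the median over 627 tested genes was -0.25 on the log2 scale. The part of this shift was not tested.

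Among 11 tested effectors of AKT and of the kinase branch beside it, only *Sgk1* was called higher (9.09%, beside 8.78% of all tested genes). Called lower were 0 (beside 8.96%). *Sgk1* encodes a kinase related to AKT that is activated through mTOR complex 2. It stood at 73.3, 72.7 and 64.5 FPKM in WT and at 154, 117 and 127 FPKM in MSTN-KO. The groups were far apart, with a log2 fold change of 0.90 and a standard error of 0.13 (limma adjusted p = 0.00061).

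Genes of amino acid sensing held 4 of the 9 calls of higher genes, 4 of 25 tested (16%, beside 8.78% of all tested genes) and 0 lower (beside 8.96%). Of these 4, *Sesn1* was called in 12, *Nprl3* in 10, *Sesn2* in 7 and *Lamtor4* in 6 of the 16 alternatives. *Sesn1* and *Sesn2* encode sestrins, stress-induced proteins that restrain mTOR complex 1. *Sesn1* was at 7.46, 8.04 and 6.80 FPKM in WT and at 14.5, 13.8 and 9.42 FPKM in MSTN-KO (log2 fold change 0.67, limma adjusted p = 0.0163). *Sesn2* was at 12.3, 9.67 and 9.76 FPKM in WT and at 14.6, 13.6 and 16.4 FPKM in MSTN-KO (0.46, limma adjusted p = 0.0454). Neither gene overlapped between the groups.

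*Nprl3*, a subunit of the GATOR1 complex, was at 25.7, 20.8 and 19.6 FPKM in WT and at 31.4, 28.2 and 32.6 FPKM in MSTN-KO (log2 fold change 0.47, limma adjusted p = 0.0327). GATOR1 is known to restrain mTOR complex 1 when amino acids are short. *Lamtor4*, a subunit of the Ragulator complex that helps to activate it, was at 84.2, 88.6 and 72.7 FPKM in WT and at 111, 99.1 and 129 FPKM in MSTN-KO (0.46, limma adjusted p = 0.0340).

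Of 12 tested genes of the AMPK and stress branch, 1 was called in each direction (8.33% each, beside 8.78% higher and 8.96% lower over all tested genes). *Ddit4* encodes REDD1, a stress-induced inhibitor that acts on mTOR complex 1 through TSC2. It was at 48.1, 40.8 and 44.2 FPKM in WT and at 84.8, 68.7 and 74.1 FPKM in MSTN-KO (log2 fold change 0.76, standard error 0.13, limma adjusted p = 0.00163). *Cab39* encodes MO25, a scaffold of the kinase LKB1 that activates AMPK, and was the 1 gene of the list called lower. It stood at 15.2, 16.7 and 18.1 FPKM in WT and at 11.9, 12.2 and 9.92 FPKM in MSTN-KO (log2 fold change -0.52, standard error 0.14, limma adjusted p = 0.0220). *Cab39* lies on chromosome 1, where the median over 627 tested genes was -0.25 on the log2 scale, and the part of this shift was not tested.

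Downstream of mTOR complex 1, 2 of 13 tested genes were called higher (15.4%, beside 8.78% of all tested genes) and 0 lower (beside 8.96%). *Rps6* encodes the ribosomal protein that S6 kinase phosphorylates, and was at 1645, 1899 and 2141 FPKM in WT and at 2664, 2389.5 and 2924 FPKM in MSTN-KO (log2 fold change 0.49, limma adjusted p = 0.0388). Ribosomal protein genes have processed pseudogenes that can share reads with them, and the part of such reads in *Rps6* was not tested. After quantile normalization the log2 fold change of *Rps6* was 0.08 (adjusted p = 0.575 by limma). *Eif4b*, a translation initiation factor and S6 kinase substrate, was at 142, 149 and 154 FPKM in WT and at 193, 195 and 202 FPKM in MSTN-KO (0.40, limma adjusted p = 0.0278). In both genes the groups did not overlap.

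**Figure D5:**
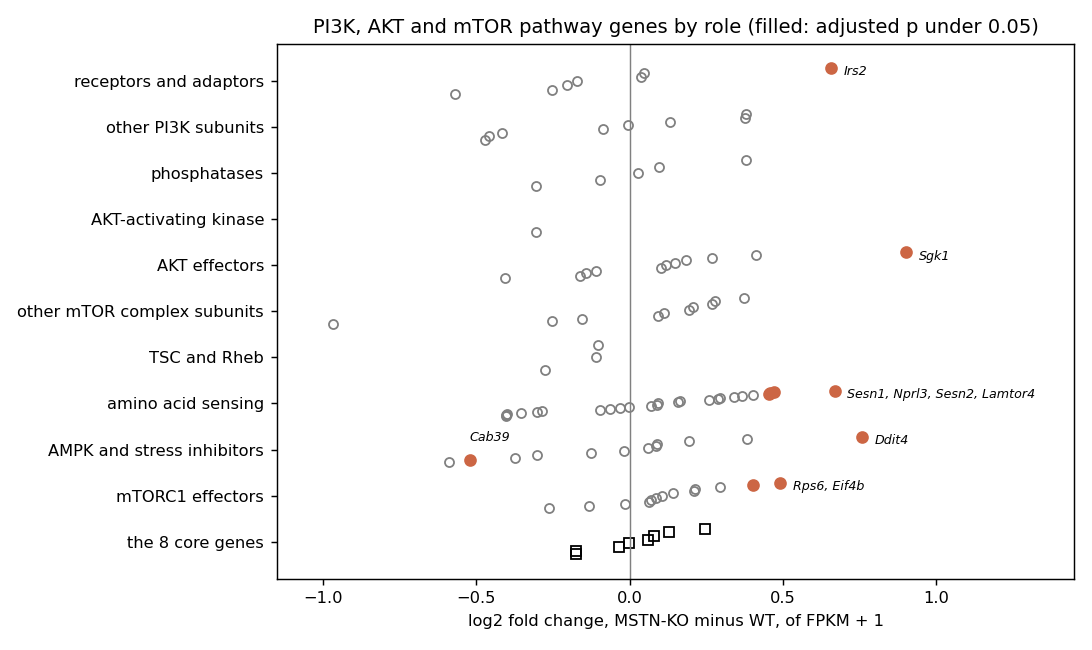
Log2 fold change of FPKM + 1, MSTN-KO minus WT, for the 95 tested genes of the pathway list by role, with called genes filled and named and the 8 core genes as squares in the last row. The 9 genes called higher lie between 0.40 and 0.90, *Cab39* at -0.52, and the core genes within -0.18 to 0.25.

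*Sgk1* and *Ddit4* were called in 16 of 16 alternative fits, and in 6 of 6 with a library left out. The DEG rule of the study, not counted among the 16, called neither. The other 8 were less firm: *Irs2* was called in 13, *Cab39* in 12, *Eif4b* in 8 and *Rps6* in 5 of 16, beside the counts given for the genes of amino acid sensing. The number of pathway genes called higher, 9 with all libraries, was 2 without MSTN-KO replicate 1, 3 without WT replicate 2 or WT replicate 3, 4 without MSTN-KO replicate 3, 8 without WT replicate 1 and 12 without MSTN-KO replicate 2. Over all tested genes this number was 952 with all libraries and, in the same order, 511, 423, 603, 583, 795 and 1184. The number of pathway genes called lower, 1 with all libraries, was 0 without MSTN-KO replicate 1 or MSTN-KO replicate 3, 2 without WT replicate 1 and 4 without MSTN-KO replicate 2. Over all tested genes it was 971 with all libraries and, in the same order, 695, 723, 662 and 1251.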

How the data were processed

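The 3 WT and 3 MSTN-KO RNA-seq libraries were grouped by the genotype in the sample titles. The authors deposited FPKM values, 1 library per file, with replicates not pooled. The submitters' processing notes name Bowtie 0.12.2 and the build mm8 without a role. The annotation, the FPKM tool and any gene filter are not given in the sources used here. Because FPKM divides by the fragments of the library, a few abundant genes can lower all others. Symbols, coordinates, lengths and GC content came from GENCODE M21 (GRCm38) and matched 14445 of 14548 identifiers (99.3%). The lengths the authors used may differ.

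The 10837 genes that reached 1 FPKM in any library were tested. Their log2(FPKM + 1) values entered a limma model (version 3.58.1, R 4.3.3) with group as the only term and eBayes with a trend. Fold changes on this scale understate those of low genes. Calls were made at a Benjamini-Hochberg adjusted p under 0.05 over all tested genes. Shares and ratios were compared with exact permutation tests over 20 regroupings, two-sided. Depth was estimated from genes under 0.1 FPKM with 1 transcript, reading each value as 1 fragment over the transcript's length and taking the median within 12000000 to 25000000 fragments, and again as the mode over genes under 0.03 FPKM. Shared 50-base windows were counted over all annotated transcripts.

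The members and gene lists were chosen with earlier results of these data known, and no list was tested as a set. A few genes of the planned lists, and 1 planned share, are not reported here. The genes named are the 8 members, the pathway genes called, and the genes in the shares and ratios. Other pathway genes are named outside this rule, as examples of a role or, like *Irs1*, *Prr5l*, *Sgk3* and *Pik3r5*, after their values had been seen. The pathway genes *Pik3cg*, *Pik3r6*, *Rragb* and *Rps6kb2* were not analysed here. The alternatives changed the pseudocount (0.1), the filter (none, or on the mean), the trend (none) or the scaling (quantile, percentile 75, or a sum of 1000000 per library). Others corrected for length and GC content (mgcv 1.9.3), blocked by replicate number or left out each library. These made 16 alternative fits. The thresholds of the study's DEG rule were applied to the main fit and are not counted among the 16. The fit was tested on simulated data. Python 3.11.15 was used with scipy 1.17.1, numpy 2.4.6, pandas 2.3.3 and, for figures, matplotlib 3.10.9.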

Additional observations from a re-analysis of the deposited data

How the results depend on the processing

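Of the 8 core genes, 0 were called higher under any alternative, and 1 (*Akt1*) was called lower, with scaling to a sum of 1000000 alone. That scaling also moved *Mtor* to -0.21, *Rptor* to -0.19, *Tsc1* to -0.098 and *Tsc2* to -0.023, and scaling by the percentile 75 moved *Mtor* to -0.015. The length and GC correction turned *Pik3ca* to 0.059, *Pik3cb* to 0.038 and *Rictor* to 0.050, and quantile normalization turned *Pik3cb* to 0.067. *Pik3cd*, not called otherwise, was called with the length and GC correction (limma adjusted p = 0.0297), after scaling to the sum (0.0273) and without a filter (0.0492), and *Pik3r2* with the length and GC correction (0.0315) and without WT replicate 1 (0.0365). With 1 library left out, the log2 fold change ranged from -0.31 to 0.075 for *Pik3ca*, from -0.11 to 0.049 for *Akt1*, from -0.14 to 0.14 for *Akt2*, from -0.0087 to 0.17 for *Mtor*, from -0.0053 to 0.17 for *Rptor* and from -0.28 to 0.084 for *Rictor*. The difference in the share of *Pik3ca* ranged from -2.72 to 6.79 percentage points. On the log2 scale the ratio of *Pik3r1* to *Pik3ca* ranged from -0.15 to 0.092, that of *Rptor* to *Rictor* from -0.10 to 0.63 and that of *Tsc1* to *Tsc2* from -0.19 to 0.021.

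Of the pathway list, 9 genes were called higher, but 5 without a filter, 2 after scaling to a sum of 1000000, 0 under the DEG rule and 2 to 12 with 1 library left out. The count called lower was 1, but 2 with a pseudocount of 0.1, without the trend or with the percentile 75, 4 without a filter or with the length and GC correction, 11 after scaling to the sum, 0 under the DEG rule and 0 to 4 with 1 library left out. Over all tested genes, 952 were called higher and 971 lower. Scaling to the sum gave 360 and 2425, the DEG rule 131 and 249, and leaving out 1 library 423 to 1184 and 606 to 1251. Scaling to the sum or by the percentile 75 shifted the median of all genes by -0.256 and -0.07. Why these counts moved was not tested beyond those shifts.

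Both groups carry replicate numbers 1 to 3. Deviations of same-numbered libraries correlated with r of -0.0153, -0.128 and -0.142 over genes, so the numbers were not taken as pairs. With the replicate number as a block, 0 core genes, 8 pathway genes higher and 3 lower, and 939 and 1001 of all genes were called. *Sesn2* lost its call (limma adjusted p = 0.0623). With the block and the length and GC correction, 0 core genes, 9 and 3 pathway genes, and 986 and 1123 of all genes were called, *Pik3ca* was at 0.059, *Pik3cb* at 0.038 and *Rictor* at 0.050. Paired exact tests of the shares and ratios cannot give less than 0.25, and the differences of the means are those without the block.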

Other observations

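Of the pathway list, 7 genes stayed under 1 FPKM in every library and were not in the main fit. They were looked at after the other values had been seen, in the limma fit without a filter on low values. *Sgk3*, which encodes a kinase related to AKT that is recruited to endosomes, was at 0.919, 0.663 and 0.859 FPKM in WT and at 0.137, 0.168 and 0.150 FPKM in MSTN-KO, and all MSTN-KO libraries lay below WT (log2 fold change of FPKM + 1 of -0.65, limma adjusted p = 0.00172). *Sgk3* lies on chromosome 1, where the median over 627 genes of the main fit was -0.25, and the part of this shift was not tested. *Pik3r5*, which encodes a regulatory subunit of the class IB PI3K, was at 0.0701, 0.144 and 0.165 FPKM in WT and at 0.391, 0.473 and 0.589 FPKM in MSTN-KO, and all MSTN-KO libraries lay above WT (0.40, limma adjusted p = 0.0109). The other 5, *Grb10*, *Pik3c2b*, *Inpp5d*, *Inpp4b* and *Prkaa2*, were not called in that fit.

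*Prr5l*, which encodes a partner of mTOR complex 2, was not called (limma adjusted p = 0.0646). Its log2 fold change of FPKM + 1 was the lowest of the tested pathway genes (-0.97, standard error 0.34), a rank that depends on the added 1 in genes this low. It was at 0.590, 4.46 and 1.57 FPKM in WT and at 0.208, 0.658 and 0.492 FPKM in MSTN-KO, so the WT libraries spread widely and overlapped MSTN-KO.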
